A study of Mus musculus with 18 samples.

Results

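The CC chemokine genes Ccl2, Ccl7, Ccl8, Ccl11, Ccl6, Ccl3, Ccl4 and Ccl5 were followed through mouse colon and tumor organoids. They are 8 of the 36757 genes in the count table and were taken by their symbols alone. RNA was sequenced from 18 libraries of C57BL/6 mice, 3 in each of 6 groups. Mice aged 6 to 8 weeks received 2% dextran sulfate sodium (DSS), which injures the colon lining, in their water for 7 days and plain water for 14 days, in repeated cycles, and colon was taken 4 weeks after the last cycle (colitis). In the colitis-associated cancer (CAC) model a dose of azoxymethane (AOM, 10 mg/kg), a carcinogen, was injected before the DSS, and the organoids were grown in matrigel from CAC tumors. In each model 3 libraries were wild type (RNF138fl/fl) and 3 were labelled RNF138-/-, so every mouse had received DSS and no untreated colon was analysed here. In which cells the deletion was made is not given in the sources used here, and nor is whether the 3 libraries of a group came from separate mice, so p-values measure the spread between these libraries, which may be technical.

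Total counts were between 11514716 and 24390082 per library, with a median of 17332367. Rnf138 itself did not pass as lower in any group labelled RNF138-/-: its log2 fold change was -0.06 in colitis (edgeR, adjusted p = 0.963), 0.72 in CAC (higher, adjusted p = 0.0426) and -0.10 in organoids (adjusted p = 0.668). Its level was 16.0 to 25.5 CPM (its counts scaled to the normalized size of the library) in wild-type colitis and 18.1 to 19.5 in the libraries labelled RNF138-/-, 21.0 to 28.0 and 39.6 to 45.3 in CAC, and 37.4 to 55.2 and 42.6 to 49.9 in the organoids. Groups are therefore named below by their labels, and every direction between genotypes rests on those labels. Whole-gene counts do not tell whether part of the transcript was lost. Epcam, an epithelial surface gene, was at 824 to 2128 CPM in every library. Col1a1, a collagen gene of fibroblasts, was at 3197 to 16002 CPM in the organoids and at 63.5 to 271 in tissue, and which cells it came from was not tested. RNA of 4 Y-linked genes was present in the 12 tissue libraries, was at 0 counts in the wild-type organoids and was at 241 to 280 CPM in the organoids labelled RNF138-/-, so sex and genotype cannot be told apart in the organoids.

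CC chemokines are small secreted proteins whose first cysteines stand side by side, and they steer white blood cells by binding receptors that couple to G proteins. Ccl2 and Ccl7 bind Ccr2 and bring monocytes out of the bone marrow and into inflamed tissue, while Ccl11 (eotaxin) binds Ccr3 and draws eosinophils into the gut wall. Mouse Ccl8 acts on Ccr8, Ccl6 is a rodent chemokine made by myeloid cells, and Ccl3, Ccl4 and Ccl5 attract monocytes, macrophages and T cells. Fibroblasts, macrophages, lymphocytes and epithelium can all make members of the family, many of them through NF-kB.

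The pair of neighbouring cysteines that gives the family its name can be read from the coding sequence. The 30 bases around it are shown for 7 of the genes from the GENCODE M21 transcripts (mm10), with both cysteine codons in capitals, because this is the feature these genes share.
Ccl2: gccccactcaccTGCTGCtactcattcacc
Ccl7: aatgcatccacaTGCTGCtatgtcaagaaa
Ccl8: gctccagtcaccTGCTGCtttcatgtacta
Ccl11: atcccaacttccTGCTGCtttatcatgacc
Ccl6: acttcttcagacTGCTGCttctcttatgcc
Ccl4: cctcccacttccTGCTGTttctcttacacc
Ccl5: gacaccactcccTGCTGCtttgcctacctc
The pair stood at codons 32 and 33 in Ccl8 and Ccl11, 33 and 34 in Ccl7 and Ccl5, 34 and 35 in Ccl2 and Ccl4, and 50 and 51 in Ccl6. Of these 7, Ccl4 alone had TGT as its second codon of the pair.

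All 8 genes lie on chromosome 11 in 2 groups. Ccl2 (82035571 to 82037453), Ccl7 (82045712 to 82047525), Ccl11 (82057823 to 82062955) and Ccl8 (82115185 to 82116799) lie in this order on the plus strand. Ccl5 (83525778 to 83530518), Ccl6 (83587882 to 83593087) and Ccl3 (83647844 to 83649355) are on the minus strand, and Ccl4 (83662584 to 83664683) is beside them on the plus strand. Each has 3 coding exons apart from Ccl6, which has 4. No 50-base window of their transcripts occurred in another gene of the annotation. Whether counting used strand is not given in the sources used here, and 2 members overlap a gene on the other strand. These are Gm17268 at Ccl2, which is not among the genes analysed here, and E230016K23Rik at Ccl6, which was at 0.0504 to 6.86 CPM.

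**Figure D1:**
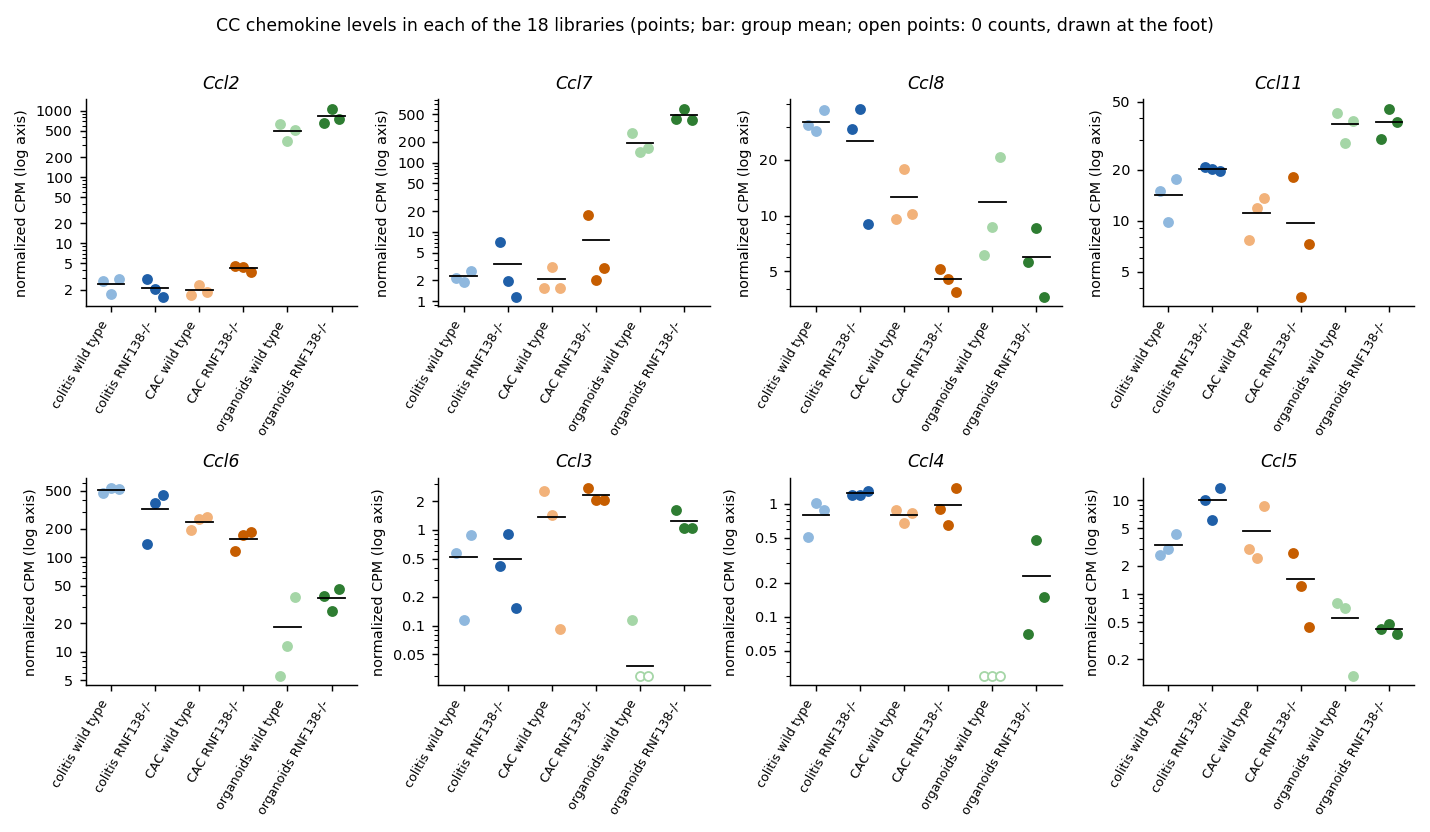
Normalized CPM (log axis, its range set for each gene) of the 8 CC chemokines in each of the 18 libraries by group; points are libraries, bars are group means and open points at the foot are libraries with 0 counts. Ccl2 and Ccl7 stood at 140 CPM or more in all 6 organoid libraries and at 17.7 CPM or less in all 12 tissue libraries, while Ccl6 was higher in all 12 tissue libraries (117 CPM or more) than in every organoid library (46.2 or less).

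The chemokine with the most RNA differed between tissue and organoids. Per kilobase of exon, Ccl6 had the highest level in all 4 tissue groups, from 286 mean CPM per kilobase in wild-type colitis to 87.5 in CAC labelled RNF138-/-, and in each of them no other member reached it in any library. Ccl8 came second in both colitis groups and in wild-type CAC, at 62.8, 49.5 and 24.5 CPM per kilobase, and overlapped Ccl11 in colitis labelled RNF138-/-. In the organoids Ccl2 came first (437 in wild type and 725 in those labelled RNF138-/-) and Ccl7 second (238 and 596), but the libraries of Ccl2 and Ccl7 overlapped, so their order was within the spread.

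The lower places of that order were less settled. In wild-type colitis Ccl11 (13.1 CPM per kilobase) stood above Ccl5 (3.48) with no overlap, and Ccl5, Ccl7, Ccl2, Ccl4 and Ccl3 each overlapped the next. In wild-type CAC Ccl11, Ccl5, Ccl7, Ccl3 and Ccl2 overlapped one another in turn between 10.2 and 1.74. In CAC labelled RNF138-/- Ccl7, Ccl11 and Ccl8 were at 9.47, 8.93 and 8.86 with overlapping libraries. In the organoids Ccl11 came after Ccl2 and Ccl7 in both genotypes (34.1 and 35.2), and Ccl4 was last in both.

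**Figure D2:**
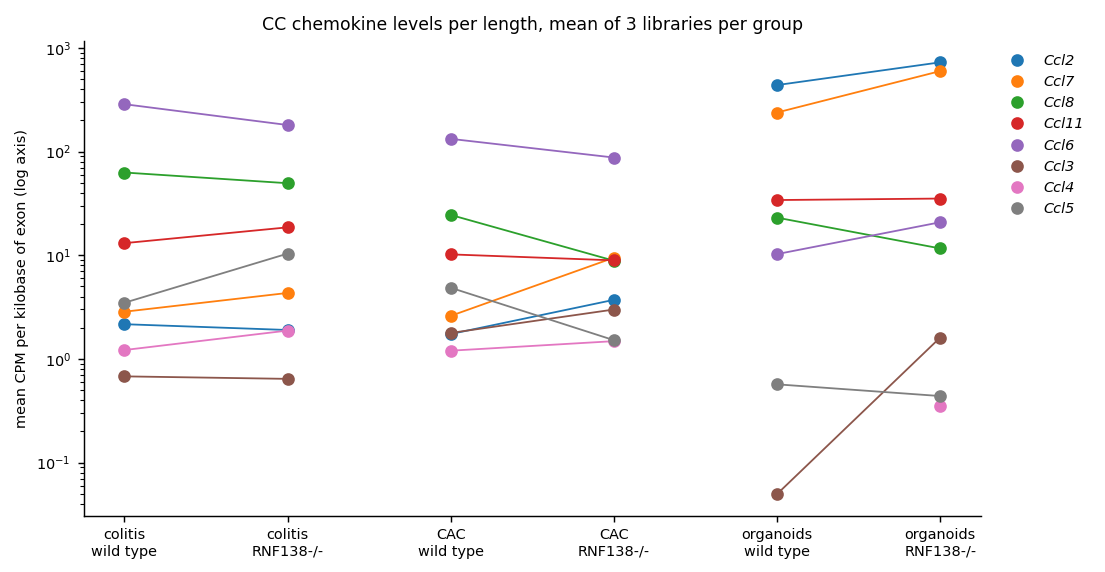
Mean normalized CPM per kilobase of exon (log axis) of the 8 CC chemokines in the 6 groups of 3 libraries, with lines joining the genotypes of 1 model; Ccl4 in wild-type organoids had 0 counts and is not drawn. Ccl6 is the highest point in all 4 tissue groups and Ccl2 in both organoid groups.

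The genotypes were compared first within colitis. None of the 7 members that passed the filter on low counts was called by edgeR, where a call needs a difference of at least 2-fold with an adjusted p below 0.05. Among all 16623 genes tested in colitis, 0.0902% were called (15 genes). At an unadjusted p under 0.05 the count of members was 1, Ccl5 (10.4% of all genes), and DESeq2 called the same gene. The libraries of the genotypes did not overlap for 4 of the 7 members, Ccl4, Ccl5, Ccl11 and Ccl6, beside 17.5% of all genes tested. The median log2 fold change was 0.53 over the 7 members and 0.02 over all genes tested.

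Ccl5, which T and NK cells release, had the largest difference of the 7 members between genotypes in colitis. Its level was 2.62, 3.01 and 4.39 CPM in the wild-type libraries and 10.1, 6.17 and 13.6 in those labelled RNF138-/-. All 3 libraries labelled RNF138-/- were above every wild-type library. The log2 fold change was 1.61 (SE 0.37, edgeR, adjusted p = 0.194). An exact permutation test gave p = 0.1 (two-sided, n = 3), the smallest that 3 libraries against 3 allow. The adjusted p was 0.00503 by DESeq2, 0.0192 without a filter on low counts, 0.0421 with Y-linked RNA as a covariate and 0.0690 with the replicate number as a block, so the call depended on the setting. With that block 89 genes in all were called in place of 15, and still none of the 7 members.

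Markers of T and NK cells are given beside Ccl5 in colitis, although neither the list nor Ccl5 was called by edgeR. The 12 markers summed to 32.6 to 34.6 CPM in wild-type colitis and to 68.9 to 97.5 in the libraries labelled RNF138-/-, and none of the 12 was at 0 in either group. Of these 12 genes, 11 had a positive log2 fold change (median 1.34), 0 were called by edgeR, 10 had an unadjusted p under 0.05 (10.4% of all genes) and DESeq2 called 5 (343 of all 16623 genes). Prf1 (0.328 and 1.03 mean CPM) passed the filter on low counts only through the libraries labelled RNF138-/-. Ncr1 (0.849 and 0.392) passed it only through wild type. The directions of Prf1 and Ncr1 were therefore fixed and are not counted as support. Gzmb, a protease of killer cells, was at 2.95 to 3.88 CPM in wild type and 10.5 to 13.1 in the libraries labelled RNF138-/- (edgeR, adjusted p = 0.0525). Cd8a was at 2.51 to 2.96 and 6.65 to 14.1 CPM. The part of these cells in the Ccl5 difference was not tested, and in bulk tissue more cells of a type and more RNA per cell cannot be told apart.

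The other members in colitis gave smaller differences, none of which passed the test. Ccl11, which draws eosinophils, was at 14.9, 9.88 and 17.7 CPM in wild type and at 20.6, 20.1 and 19.6 in the libraries labelled RNF138-/- (log2 fold change 0.53, SE 0.24, edgeR, adjusted p = 0.498). Ccl4, which attracts monocytes and T cells, was near 1 CPM in both genotypes, at 0.513 to 1.02 and 1.20 to 1.31 (log2 fold change 0.65, adjusted p = 0.630). Both were higher in every library labelled RNF138-/-. Ccl6 was at 471, 541 and 529 CPM in wild type and at 137, 376 and 458 in the libraries labelled RNF138-/-, lower in all 3 (log2 fold change -0.63, SE 0.40, edgeR, adjusted p = 0.659). Replicate 1 labelled RNF138-/- was the lowest of the 6 by far.

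The ligands of Ccr2 did not separate the genotypes in colitis. Ccl2 was at 2.74, 1.70 and 2.95 CPM in wild type and 2.88, 2.06 and 1.56 in the libraries labelled RNF138-/-. Ccl7 was at 2.17, 1.93 and 2.76 and at 7.25, 2.00 and 1.16. Without the high replicate 1 labelled RNF138-/- the log2 fold change of Ccl7 went from 0.61 to -0.51. Ccl8 was at 30.8, 28.4 and 37.0 CPM and at 29.3, 37.5 and 9.03, with replicate 3 labelled RNF138-/- apart from the other 5. Ccl3 had 2 to 15 counts per library in colitis (0.114 to 0.907 CPM) and was not tested there.

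**Figure D3:**
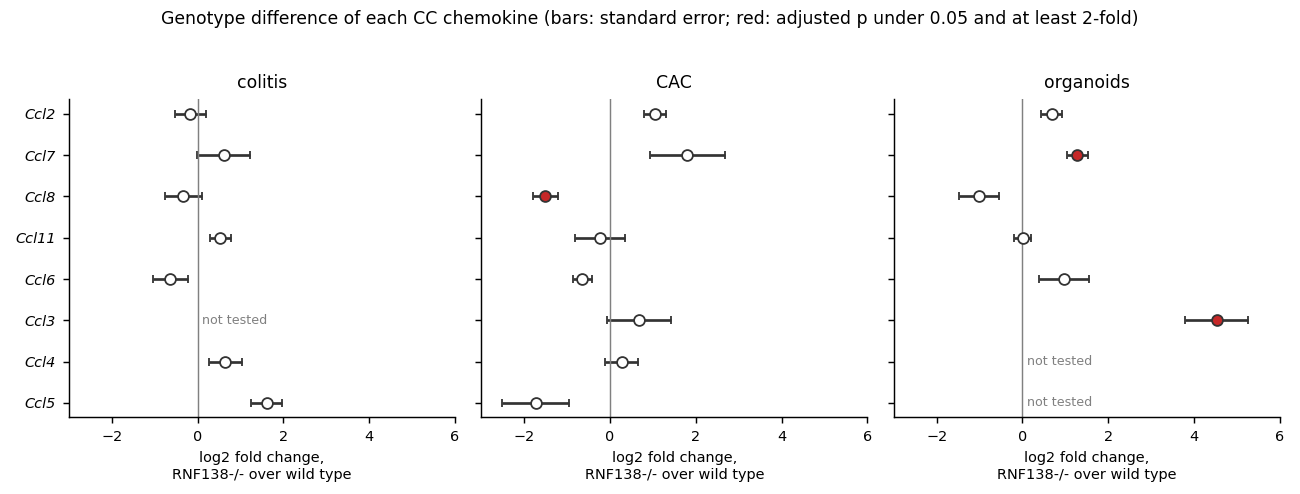
Log2 fold change of each CC chemokine between libraries labelled RNF138-/- and wild-type libraries in colitis, CAC and organoids (3 against 3 libraries, edgeR), with bars of 1 standard error; red points were called (at least 2-fold, adjusted p below 0.05), and members under the filter on low counts are marked as not tested. The points that passed are Ccl8 in CAC (-1.51) and Ccl7 (1.28) and Ccl3 in the organoids, and the value of Ccl3 depends on 2 wild-type counts.

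In CAC colon 1 of the 8 members was called, Ccl8, which was lower in the libraries labelled RNF138-/-. Over all 17752 genes tested 5.37% were called in CAC, 4.83% as lower. DESeq2 called 2 members, Ccl8 and Ccl2. The libraries did not overlap for 3 of the 8 members (Ccl2, Ccl6 and Ccl8), beside 44.6% of all genes. The median log2 fold change was 0.02 over the members and 0.01 over all genes.

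Ccl8 was at 9.56, 17.8 and 10.2 CPM in wild-type CAC and at 5.15, 4.57 and 3.86 in the libraries labelled RNF138-/-. Every library labelled RNF138-/- was below every wild-type library. The fold change was 2.84 (log2 fold change -1.51, SE 0.30, edgeR, adjusted p = 0.0422; DESeq2, 0.000186). Leaving out a library took edgeR's adjusted p past 0.05 in 5 of 6 cases, at 0.0560 and 0.0557 without wild-type replicates 1 and 2 and at 0.108, 0.164 and 0.115 without replicates 1, 2 and 3 labelled RNF138-/-. It was 0.0707 with library totals in place of TMM and 0.297 with Y-linked RNA as a covariate. The call was also lost with the replicate number as a block. The log2 fold change stayed between -1.68 and -1.17 in all these fits.

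Markers of several cell types differed or had no overlap in the same CAC libraries. All 5 smooth muscle markers and all 5 markers of B and plasma cells were called lower in the libraries labelled RNF138-/-, beside 4.83% of all genes by edgeR (DESeq2 called 2464 of 17752 in either direction). The smooth muscle sum was 2253 to 7055 CPM in wild-type CAC and 108 to 221 in those labelled RNF138-/-, and that of B and plasma cells was 1489 to 2302 and 123 to 213. The 16 markers of monocytes and macrophages summed to 448 to 1026 and 830 to 1125 CPM with a median log2 fold change of 0.05, 9 of 16 positive and 1 called, Cd163, which was lower (log2 fold change -1.91). Ly6c2, a marker of inflammatory monocytes, was at 9.31 to 37.0 CPM and 0.583 to 4.36 (log2 fold change -2.96, SE 0.80, edgeR, adjusted p = 0.0670). The 4 fat markers summed to 19.4 to 32.7 CPM in wild type and 0.607 to 1.27 in those labelled RNF138-/-, where Adipoq and Lep were at 0, and both fat genes tested were called lower. Adipoq passed the filter on low counts only through the wild-type libraries, so it had to differ. Of 8 neutrophil markers 7 had a positive log2 fold change (median 1.59), with 0 called by edgeR, 5 at an unadjusted p under 0.05 and 5 called by DESeq2. The 6 epithelial markers summed to 6554 to 12970 CPM and 5358 to 6157, all with a negative log2 fold change, 0 of them called by edgeR and 3 by DESeq2. The eosinophil markers summed to 14.4 to 58.1 and 15.0 to 193 CPM with Ear1 at 0 in both groups. Of the 4 tested 1 was called lower, Prg2 (-3.32, edgeR, adjusted p = 0.0426). The others were at -3.65 (Siglecf), -0.01 (Il5ra) and 2.02 (Alox15) without passing. Prg2 and Siglecf passed the filter on low counts only through the wild-type libraries. The directions of Prg2 and Siglecf were therefore fixed and are not counted as support. The part of these cells in the Ccl8 difference was not tested.

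Ccl2 was higher in the CAC libraries labelled RNF138-/- without passing the test. Its level was 1.69, 2.40 and 1.85 CPM in wild type and 4.52, 4.45 and 3.72 in those labelled RNF138-/-, with no overlap. The log2 fold change was 1.05 (SE 0.26, edgeR, adjusted p = 0.0590), and it was called by DESeq2 (adjusted p = 0.00724) and in one edgeR fit of all 18 libraries (0.0138). Ccl7 was at 1.56, 3.12 and 1.57 CPM and at 17.7, 2.06 and 3.004. That difference rested on replicate 1 labelled RNF138-/-, since the log2 fold change was 1.81 with it and 0.23 without it.

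The remaining members in CAC did not pass the test. Ccl6 was at 195, 256 and 263 CPM in wild type and 117, 170 and 184 in the libraries labelled RNF138-/-, lower in all 3 (log2 fold change -0.65, SE 0.23, edgeR, adjusted p = 0.108). Ccl11 was at 7.69, 11.8 and 13.6 and at 18.1, 3.56 and 7.31, a wide spread within the second group. Ccl5 was at 2.999, 2.40 and 8.60 and at 2.71, 1.21 and 0.448 (log2 fold change -1.74, SE 0.77, edgeR, adjusted p = 0.168), with overlap. The value for Ccl5 was -0.90 without wild-type replicate 3 and -2.52 without replicate 1 labelled RNF138-/-. With Y-linked RNA as a covariate it was -0.65. Ccl3 was at 2.56, 1.44 and 0.0925 and at 2.76, 2.06 and 2.06, and 1 wild-type library had 1 count where the other 5 had 30 to 52. Ccl4 was at 0.672 to 0.875 CPM and 0.647 to 1.39.

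In the tumor organoids 2 of the 6 members tested were called, Ccl7 and Ccl3, both higher in the libraries labelled RNF138-/-. Ccl3 passed the filter on low counts only through those libraries, so it had to differ, and its call is not counted as support. Of all 15294 genes tested 15.0% were called in the organoids, 7.94% as higher. The libraries did not overlap for Ccl2, Ccl7 and Ccl3, 3 of the 6, beside 53.2% of all genes. DESeq2 also called 2.

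Ccl7 was at 267, 140 and 164 CPM in wild-type organoids and at 430, 595 and 409 in those labelled RNF138-/-. The lowest of the second group was above the highest of the first. The fold change was 2.43 (log2 fold change 1.28, SE 0.25, edgeR, adjusted p = 0.00735), and the call held without any 1 of the 6 libraries (log2 fold change 1.11 to 1.62). In one fit of all 18 libraries the adjusted p was 0.161. Ccl2 was at 630, 350 and 513 CPM in wild type and 664, 1068 and 742 in those labelled RNF138-/-, also with no overlap, but under the threshold (log2 fold change 0.69, SE 0.24, edgeR, adjusted p = 0.0592).

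Ccl3, a ligand of Ccr1 made by macrophages, had 2, 0 and 0 counts in the wild-type organoid libraries and 23, 20 and 14 in those labelled RNF138-/- (0.114, 0 and 0 against 1.60, 1.06 and 1.04 CPM). It was called higher (edgeR, adjusted p = 0.00403). The ratio of the summed counts, 57 against 2, was 27.5 with a 95% interval of 7.28 to 233, which covers counting error only. Ccl4 had 0 counts in all 3 wild-type libraries and 1, 9 and 2 in those labelled RNF138-/-. It was under the filter and was not tested, and 9 of its 12 counts came from replicate 2. Ccl5 had 2 to 14 counts in wild type and 5 to 9 in those labelled RNF138-/- and was not tested either.

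The other members of the organoids showed no call. Ccl11 was at 43.2, 28.5 and 38.8 CPM and at 30.4, 45.5 and 38.4, with overlapping groups (log2 fold change 0.00, SE 0.19, edgeR, adjusted p = 0.993). Ccl8 was at 6.12, 8.62 and 20.6 and at 5.64, 8.55 and 3.64 (log2 fold change -1.02, SE 0.47, edgeR, adjusted p = 0.125). Without wild-type replicate 1 Ccl8 was called lower (log2 fold change -1.31, edgeR, adjusted p = 0.0308). Without the high wild-type replicate 3 its adjusted p was 0.487 (edgeR). Leaving out 1 library gave Ccl8 log2 fold changes from -1.37 to -0.35. Ccl6 was at 5.61, 11.5 and 38.1 CPM in wild type and 38.8, 27.1 and 46.2 in those labelled RNF138-/-. Its log2 fold change was 0.97 (edgeR, adjusted p = 0.218) and became 2.09 with a call (adjusted p = 0.00916) without the high wild-type replicate 3.

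Several cell type lists differed between the genotypes in organoids. Of 10 markers of monocytes and macrophages tested, 6 were called higher, beside 7.94% of all genes, but Adgre1, C1qa, C1qc and Itgam passed the filter on low counts only through the libraries labelled RNF138-/- and so had to differ. The called genes included Itgam (0.197 and 7.15 mean CPM), Lyz2 (5.98 and 97.2) and Mrc1 (3.004 and 8.77). The whole list of 16 summed to 72.8 to 109 CPM in wild type, with C1qc, Fcgr1 and Cd163 at 0, and to 168 to 233 in those labelled RNF138-/-, with Ly6c2 at 0. Of 7 fibroblast markers 6 were called higher, and their sum was 9011 to 23223 CPM and 40446 to 49964 with none at 0. All 5 smooth muscle markers had a positive log2 fold change with 2 called, Actg2 (1.96) and Myh11 (1.87), and their sum was 256 to 1268 and 1491 to 1662 CPM. Of 3 mast cell markers tested 2 were called lower, Tpsb2 (-2.74) and Ms4a2 (-1.21), with the list at 17.9 to 29.1 and 4.75 to 8.99 CPM and Cpa3 at 0 in both groups. The epithelial sum was 7745 to 8699 and 4547 to 6592 CPM, with 1 of 6 markers called lower, Krt18 (-1.14). The part of any of these cell types in the differences of Ccl7 and Ccl3 was not tested, and sex cannot be told apart from genotype.

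**Figure D4:**
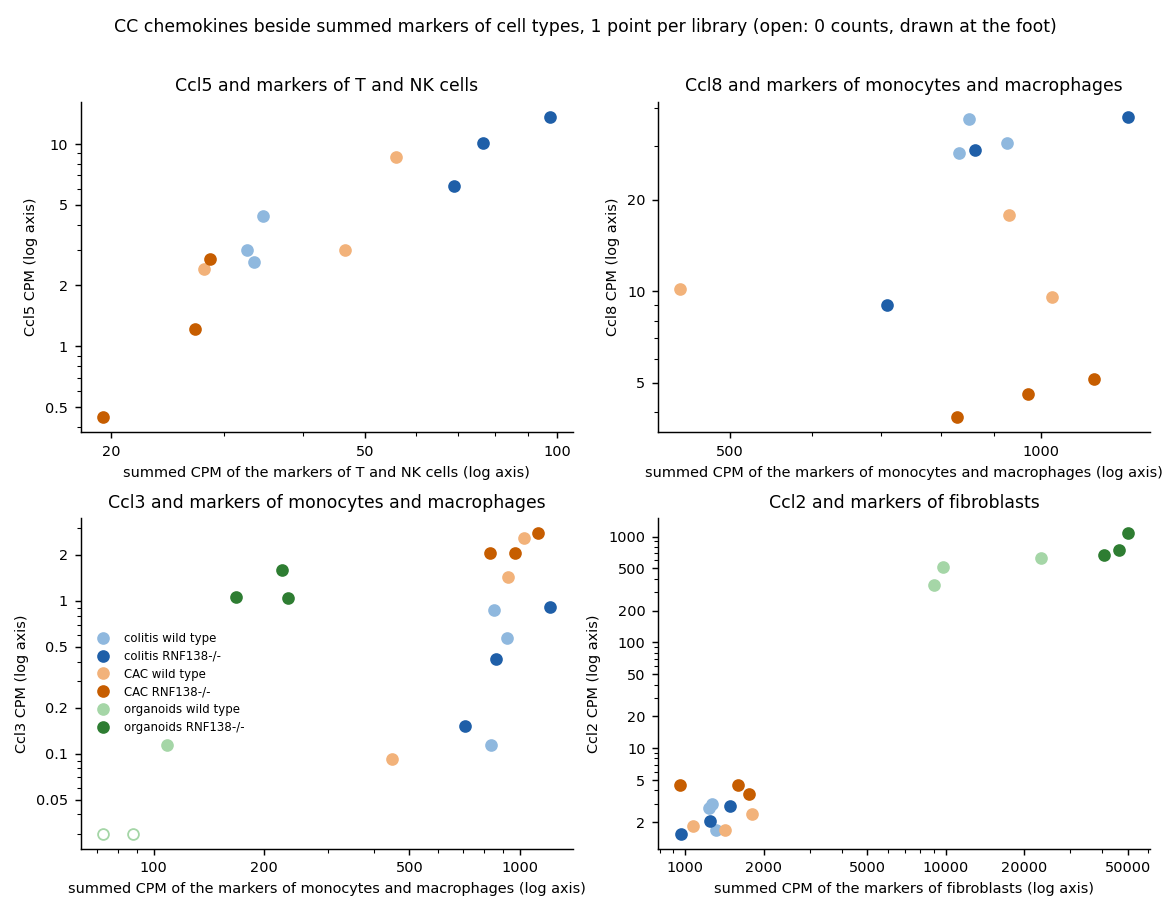
CPM of a CC chemokine (vertical, log axis) against the summed CPM of the markers of a cell type (horizontal, log axis), 1 point per library coloured by group, with open points for 0 counts; Ccl5 and Ccl8 are shown in the 12 tissue libraries and Ccl3 and Ccl2 in all 18. The 3 colitis libraries labelled RNF138-/- hold the highest sums of T and NK markers (68.9 to 97.5), Ccl8 is at 3.86 to 5.15 in CAC labelled RNF138-/- where the monocyte and macrophage sum is 830 to 1125, and the 6 organoid libraries lie apart from tissue in both the fibroblast sum and Ccl2.

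Whether the genotype difference itself differed between models was tested as an interaction, in one fit of all 18 libraries. Between CAC and colitis 1 member of 8 was called, Ccl5, beside 11.9% of all 19390 genes (9.37% lower). The difference for Ccl5 was lower in CAC than in colitis by 3.28 on the log2 scale (log2 difference -3.28, SE 0.85, edgeR, adjusted p = 0.0196). Its levels were higher in every library labelled RNF138-/- in colitis and overlapped in CAC. The call was lost without wild-type colitis replicate 1 (adjusted p = 0.0516), without wild-type CAC replicate 3 (0.0612) and without CAC replicate 2 labelled RNF138-/- (0.0520). The 12 T and NK markers had negative interaction values in every case, with a median of -2.06, and 5 of them were called. All 5 markers of B and plasma cells (median -3.99), all 5 of smooth muscle (-5.33) and all 3 fat markers tested (-10.6) were called lower in the same test. The fat markers summed to 0.607 to 1.27 CPM in CAC labelled RNF138-/-, so their values rest on low counts there. The part of any of these cells in the Ccl5 interaction was not tested.

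Ccl2 came close to the same threshold in the other direction, with an interaction of 1.26 (SE 0.41, edgeR, adjusted p = 0.0530). It passed with library totals in place of TMM (1.498, adjusted p = 0.0202), without the filter on low counts (0.0444) and by DESeq2 (0.0450). It also passed without wild-type colitis replicate 2 (0.0396), without colitis replicate 1 labelled RNF138-/- (0.0383) and without wild-type CAC replicate 2 (0.0478). The interaction of Ccl11 was -0.72 (adjusted p = 0.434) and was called without CAC replicate 1 labelled RNF138-/- (-1.54, adjusted p = 0.0394). The Ccl8 interaction was -1.13 (SE 0.67, edgeR, adjusted p = 0.273), so its genotype difference was not shown to differ between colitis and CAC.

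Between organoids and CAC tissue the interaction was called for 1 member, Ccl4, beside 18.9% of all genes, 11.4% higher (log2 difference 4.80, SE 1.32, edgeR, adjusted p = 0.0187). This value is fitted against 0 counts in the wild-type organoids and is no bound, and without organoid replicate 2 labelled RNF138-/- it was 3.67 (adjusted p = 0.1105). Ccl3 was near the threshold (3.87, SE 1.39, edgeR, adjusted p = 0.0541) and passed by DESeq2 (0.0282). It also passed without wild-type CAC replicate 3 (0.0147) and without wild-type organoid replicate 1 (0.0428). Ccl6 had 1.60 (adjusted p = 0.119), which became 2.73 with a call (0.00578) without wild-type organoid replicate 3. In the same test 7 of 16 markers of monocytes and macrophages, all 5 of smooth muscle, 4 of 7 of fibroblasts and 3 of 5 eosinophil markers were called higher. The 3 eosinophil markers were at 0.755 mean CPM or less in the organoids of either genotype, near the floor. The part of these cells in the interaction was not tested. Both interactions share the CAC libraries.

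CAC colon was then compared with colitis colon within each genotype. In wild type 0 of 8 members were called by edgeR, 2 had an unadjusted p under 0.05 and DESeq2 called 1, beside 13.6% of all genes called and 33.8% at that unadjusted p. Ccl8 and Ccl6 were the members whose libraries did not overlap, both lower in CAC, beside 34.2% of all genes. Ccl8 was at 32.1 ± 4.39 CPM (SD, n = 3) in wild-type colitis and 12.5 ± 4.59 in wild-type CAC (log2 fold change -1.34, SE 0.47, edgeR, adjusted p = 0.0565), and without wild-type CAC replicate 2 it was called (-1.70, adjusted p = 0.0456). Ccl6 was at 514 ± 37.4 and 238 ± 37.3 CPM (log2 fold change -1.09, SE 0.51, edgeR, adjusted p = 0.141). Without wild-type CAC replicate 3 Ccl3 was called higher (1.93, adjusted p = 0.0482).

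In the libraries labelled RNF138-/- 4 of 8 members were called between CAC and colitis, 1 higher and 3 lower, where 37.1% of all genes were called (17.5% higher and 19.6% lower). Ccl3 was higher in CAC, and Ccl5, Ccl8 and Ccl11 were lower. Ccl8 was at 25.3 ± 14.7 CPM in colitis and 4.53 ± 0.649 in CAC (log2 fold change -2.47, SE 0.50, edgeR, adjusted p = 0.000649). Ccl5 was at 9.95 ± 3.73 and 1.46 ± 1.15 CPM (log2 fold change -2.79, SE 0.62, edgeR, adjusted p = 0.00145). Groups did not overlap for 5 members, the 4 called and Ccl2, beside 59.1% of all genes.

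Of the 4 calls, those of Ccl11 and Ccl3 were lost in some settings. For Ccl11 the log2 fold change was -1.07 (SE 0.41, edgeR, adjusted p = 0.0376), and it lost its call without colitis replicate 1 (adjusted p = 0.0729) or 2 (0.0520) and without CAC replicate 2 (0.133) or 3 (0.121), while without CAC replicate 1 it was -1.89. It was also lost with library totals in place of TMM (-0.77, adjusted p = 0.0977), where the median of all genes was 0.35 and Ccl11 was at -1.13 relative to it, and in a fit of those 6 libraries only (0.112). Ccl3 had 2.23 (SE 0.78, edgeR, adjusted p = 0.0229) and lost it without colitis replicate 1 (0.0653) or 3 (0.0879) or CAC replicate 1 (0.0549), all of these libraries labelled RNF138-/-. Ccl2 was higher in CAC (0.97, SE 0.28, edgeR, adjusted p = 0.00888) but under 2-fold, and it was called without colitis replicate 1 (1.22, adjusted p = 0.00554) or CAC replicate 3 (1.05, adjusted p = 0.0130) and with library totals (1.29, which is 0.94 relative to the median of all genes). Without colitis replicate 1, Ccl7 (2.25, adjusted p = 0.0220) and Ccl6 (-1.41, adjusted p = 0.0283) were called too, and without CAC replicate 1 the value of Ccl7 was -0.44.

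Cell type markers differed between these groups as well. In the libraries labelled RNF138-/- 8 of 12 T and NK markers were called lower in CAC, among them Cd8a (log2 fold change -4.48), Gzma (-2.54) and Gzmb (-2.48), beside 19.6% of all genes. Of the 16 monocyte and macrophage markers 3 were called lower, Ly6c2 (-4.08, 45.7 and 2.70 mean CPM), Cd163 (-3.95) and C1qa (-1.29), and 2 higher, Cd68 (1.23) and Itgam (1.25), with a median of -0.28. All 5 markers of B and plasma cells (median -3.64), all 5 of smooth muscle (-5.70) and all 3 fat markers tested (-6.68) were called lower in CAC labelled RNF138-/-. The fat values rest on low counts there, at a sum of 0.607 to 1.27 CPM. Of 8 neutrophil markers 7 were called higher in CAC in each genotype, and of 6 mast cell markers all 6. The 9 eosinophil markers summed to 5.28 to 10.9 CPM in colitis and 14.4 to 193 in CAC, where Alox15 alone was at 26.1 mean CPM in wild type and 107 in the libraries labelled RNF138-/-. Of the 5 tested in the latter, Alox15 was called higher in CAC, Prg2 (log2 fold change -3.93) and Siglecf (-3.28) were called lower, and the median was -0.95. Prg3 was at 0 in wild-type colitis and Ear1 in CAC. The part of any of these cells in the chemokine differences was not tested. The labels name no sequencing batch, so the models could not be compared within one.

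Organoids and CAC tissue, the kind of tissue they were grown from, were compared last, with the same CAC libraries as above. In wild type 7 of 8 members were called, 3 higher and 4 lower in organoids, and in the libraries labelled RNF138-/- 6 of 8, 3 each way. The wild-type calls include Ccl4 and Ccl3, at 0 and 2 counts in organoids. Both passed the filter on low counts only through other groups, so these calls are not counted as support. Of all genes 44.3% were called in wild type (17.5% higher and 26.8% lower) and 44.4% in the libraries labelled RNF138-/- (17.9% and 26.5%). Groups did not overlap for 6 of 8 members in each genotype, beside 65.2% and 74.0% of all genes. Ccl2 rose from 1.98 to 498 mean CPM in wild type (log2 fold change 7.98, SE 0.35, edgeR, adjusted p = 2.58e-10) and from 4.23 to 825 in those labelled RNF138-/- (7.61, SE 0.33, edgeR, adjusted p = 4.91e-10). Ccl7 rose by 6.497 on the log2 scale in wild type (SE 0.81, edgeR, adjusted p = 6.91e-06) and by 5.99 in those labelled RNF138-/- (SE 0.77, edgeR, adjusted p = 7.89e-06). In those labelled RNF138-/- the rise of Ccl7 ran from 5.53 to 7.55 when 1 library was left out. Ccl11 rose from 11.03 ± 3.03 to 36.9 ± 7.53 CPM (SD, n = 3) in wild type (1.76, SE 0.42, edgeR, adjusted p = 0.00184) and from 9.66 ± 7.56 to 38.1 ± 7.59 in those labelled RNF138-/- (1.99, SE 0.42, edgeR, adjusted p = 0.000743).

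Ccl6 and Ccl5 were lower in organoids. Ccl6 fell from 238 ± 37.3 to 18.4 ± 17.3 CPM in wild type (log2 fold change -3.67, SE 0.56, edgeR, adjusted p = 4.65e-05) and from 157 ± 35.1 to 37.3 ± 9.63 in the libraries labelled RNF138-/- (-2.07, SE 0.52, edgeR, adjusted p = 0.00298). The wild-type value of Ccl6 ran from -4.79 to -3.24 when 1 library was left out. Ccl5 fell in wild type (log2 fold change -3.04, SE 0.68, edgeR, adjusted p = 0.00124). In those labelled RNF138-/- its libraries overlapped (-1.74, SE 0.70, edgeR, adjusted p = 0.0416). That call was lost without CAC replicate 1 (-0.97, adjusted p = 0.253) or 2 (0.0521) or without organoid replicate 1 (0.0908), 2 (0.0839) or 3 (0.101), all labelled RNF138-/-.

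The low-count members of wild-type organoids are given by their counts. Ccl4 had 0 counts against 37 in wild-type CAC, at least 11.7-fold lower against a floor of 3 counts over the group, and in the libraries labelled RNF138-/- it fell by 1.96 on the log2 scale (edgeR, adjusted p = 0.00611), and by 3.09 without organoid replicate 2 labelled RNF138-/-. Ccl3 had 2 counts against 72, a ratio of 0.0293 with a 95% interval of 0.00348 to 0.1097, and it was called lower although its highest organoid library (0.114 CPM) lay above its lowest CAC library (0.0925). In the libraries labelled RNF138-/- Ccl3 was not called (log2 fold change -0.89, SE 0.72, edgeR, adjusted p = 0.295). Ccl8 did not differ beyond its spread in either genotype, with log2 fold changes of -0.07 (adjusted p = 0.911) and 0.40 (adjusted p = 0.484).

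Cell type markers differed between the same groups. Monocyte and macrophage markers were called lower in organoids for 13 of 16 genes in wild type and 12 of 16 in the libraries labelled RNF138-/-, and T and NK markers for 11 of 12 in each. Of all genes 26.8% and 26.5% were called lower. In organoids 4 T and NK markers were at 0 in wild type and 6 in those labelled RNF138-/-, and for monocytes and macrophages 3 and 1. These passed the filter on low counts only through other groups, so they could not come out higher. Fibroblast markers were called higher for 6 of 7 and 7 of 7, beside 17.5% and 17.9% of all genes. Smooth muscle markers were called lower for 4 of 5 in wild type and higher for 3 of 5 in those labelled RNF138-/-. All 5 markers of B and plasma cells, some of them at 0 in organoids, were called lower in both genotypes. So were all 4 of endothelium and 6 of 8 of neutrophils. The summed fibroblast markers were at 958 to 1806 CPM in CAC tissue and at 9011 to 49964 in organoids. The part of these cells in the chemokine levels was not tested.

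The receptors were read in the same libraries. Ccr2, the receptor of Ccl2 and Ccl7, was at 5.51 to 18.6 CPM in tissue and at 0 to 0.211 in the organoids. Ccr1 was found in every group, at 4.37 to 19.2 CPM in tissue and 3.29 to 7.87 in organoids. Ccr3, the eotaxin receptor of eosinophils, stayed at or below 0.629 CPM in every library, and Ccr8, the receptor of mouse Ccl8, at or below 0.691. Epx, a granule protein that defines eosinophils, was at 0.404 CPM or less in every library and at 0 in all organoids.

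Between genotypes 0 of 6 receptors tested were called in colitis by edgeR (2 at an unadjusted p under 0.05, 0 by DESeq2), 1 of 6 in CAC and 2 of 3 in organoids, beside 0.0902%, 5.37% and 15.0% of all genes. Ackr4, which clears Ccl19, Ccl21 and Ccl25 rather than these 8, was lower in CAC labelled RNF138-/- (7.88 and 1.13 mean CPM, log2 fold change -2.84, SE 0.51, edgeR, adjusted p = 0.0358) and higher in the organoids labelled RNF138-/- (10.99 and 48.4, log2 fold change 2.09, SE 0.21, edgeR, adjusted p = 0.00102). Its interaction was called in both tests, at -3.22 between CAC and colitis (adjusted p = 0.000830) and at 4.90 between organoids and CAC (adjusted p = 2.22e-05). Ccrl2, which holds chemerin on the cell surface, was higher in the organoids labelled RNF138-/- (6.49 and 20.02 mean CPM, log2 fold change 1.57, SE 0.25, edgeR, adjusted p = 0.00403). Ccr2 was at 14.0 and 7.90 mean CPM in colitis and did not pass (log2 fold change -0.79, SE 0.33, edgeR, adjusted p = 0.456).

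**Figure D5:**
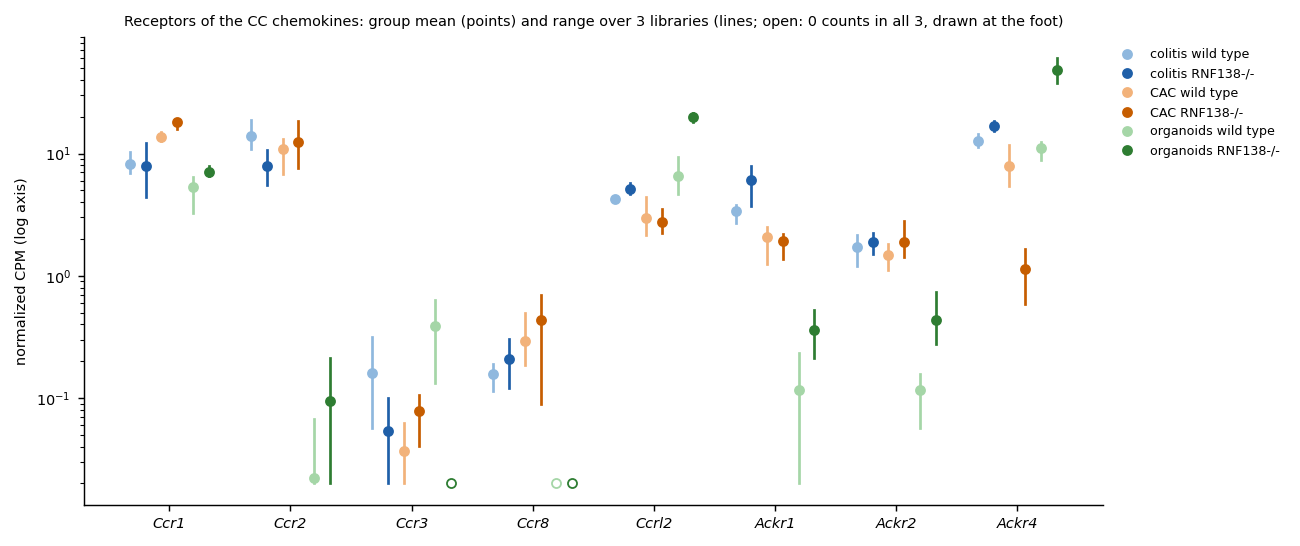
Normalized CPM (log axis) of 8 chemokine receptors in the 6 groups; points are means of 3 libraries, lines run from the lowest to the highest library, and open points at the foot are groups with 0 counts in all 3 libraries. Ccr2 is in tissue at 5.51 CPM or more and in organoids at 0.211 or less, and Ackr4 runs from 0.584 to 1.66 in CAC labelled RNF138-/- and from 38.0 to 60.3 in the organoids labelled RNF138-/-.

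The 12 other CC chemokines were compared between genotypes in the same way, beside the same shares of all genes (0.0902%, 5.37% and 15.0%). In colitis 0 of 8 tested were called by edgeR (1 at an unadjusted p under 0.05, 0 by DESeq2). In CAC 1 of 10 was called, Ccl28, an epithelial chemokine for plasma cells, which was lower in the libraries labelled RNF138-/- (103 and 19.1 mean CPM, log2 fold change -2.48, SE 0.45, edgeR, adjusted p = 0.0363). In the organoids 1 of 6 was called, Ccl25 (8.34 and 4.10 mean CPM, log2 fold change -1.07, SE 0.20, edgeR, adjusted p = 0.00678). Ccl24, the other eotaxin measured, was at 0 to 2.06 CPM. Ccl12, another Ccr2 ligand beside Ccl11 on the chromosome, was at 0.903 to 3.58 CPM in tissue and at 0 to 0.235 in organoids and was called lower there in both genotypes (edgeR, adjusted p = 0.000285 and 0.000526).

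Cytokines that induce these chemokines, and NF-kB genes, were read from a list of 19. In colitis 0 of 12 tested were called by edgeR (2 at an unadjusted p under 0.05, 0 by DESeq2). In CAC, where 5.37% of all genes were called, it was 1 of 14, Il1b, which was higher in the libraries labelled RNF138-/- (10.4 and 44.2 mean CPM, log2 fold change 2.05, SE 0.36, edgeR, adjusted p = 0.0343). Of the 14, 11 had a positive log2 fold change, with a median of 0.65 beside 0.01 over all genes. DESeq2 called 2 of them (2464 of all 17752 genes). In the organoids 3 of 15 were called, all higher, beside 15.0% of all genes called and 7.94% higher. They included Csf1, the growth factor of macrophages (538 and 1449 mean CPM, log2 fold change 1.39, SE 0.32, edgeR, adjusted p = 0.0139), and Il1a (4.14 and 14.5 mean CPM, log2 fold change 1.75, SE 0.46, edgeR, adjusted p = 0.0221). Of the 15 tested in organoids, 13 had a positive log2 fold change, with a median of 0.38 beside -0.04 over all genes. DESeq2 called 4 of the 15 (2322 of all 15294 genes). Il6 was at 114 to 270 CPM in the organoids and at 2.497 or less in tissue. Nfkbia, a feedback inhibitor of NF-kB, was higher in organoids than in CAC tissue by 1.72 on the log2 scale in wild type and 1.79 in those labelled RNF138-/-. In that comparison 8 of the 15 genes tested were called higher and 1 lower in wild type, and 9 and 1 in the libraries labelled RNF138-/-, beside 17.5% and 17.9% of all genes called higher. A link of these genes to the chemokine levels was not tested.

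The genes most like each member over the 12 tissue libraries were named by Pearson correlation of log2 CPM among 16001 genes, as a description with no test. These libraries share their group and depth, and genes that differ between the 4 tissue groups are alike for that reason alone. Ccl3 was most like Msr1 (r = 0.960), Wfdc17 (0.959) and Lyz2 (0.953), of which Msr1 and Lyz2 are macrophage genes. Ccl8 was most like Glipr1 (0.975), Xbp1 (0.965) and the monocyte marker Ly6c2 (0.961). Ccl2 was most like Got2 (0.928), Btg3 (0.899) and Hsp90ab1 (0.896), and Ccl5 like Dnah10 (0.958), Mmd (0.955) and Gpr22 (0.951). Ccl6 was most like Pon3 and Slc35g2 (both 0.953) and Galnt5 (0.9503). Ccl7 (Arc, Slc25a48 and Dus1l, 0.906 to 0.845) and Ccl11 (Mtus2, Pkp4 and Jph1, 0.893 to 0.873) had lower values, and Ccl4 was too low to rank. By Spearman's rho other genes came first in part: Glipr1 and Ly6c2 stayed among the 3 highest for Ccl8, 1 gene each stayed for Ccl2 (Got2), Ccl3 (Wfdc17), Ccl5 (Dnah10) and Ccl6 (Pon3), and none stayed for Ccl7 or Ccl11.

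Pairs of members were described in the same way. Over the same 12 libraries the highest Pearson correlation within the family was 0.72, for Ccl5 and Ccl11 (Spearman's rho 0.741), followed by 0.65 for the neighbours Ccl2 and Ccl7, which came first by Spearman (0.811), 0.62 for Ccl2 and Ccl3 and 0.61 for Ccl6 and Ccl8. Ccl3 and Ccl5, both ligands of Ccr1, had the most negative value (-0.69): Ccl3 was higher and Ccl5 lower in CAC than in colitis among libraries labelled RNF138-/-.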

How the data were processed

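RNA was extracted from flash-frozen colon or organoids with TRIzol and sequenced from TruSeq libraries, 18 in all. The deposited values are whole-number read counts per gene, which per the labels' processing notes came from STAR (version 2.6.1d), HTSeq (version 0.11.2) and mm10; whether strand was used in counting is not given in the sources used here. A deposited table of the authors' own fold changes and p-values was not used. Some items are not reported here.

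Counts were fitted with edgeR 4.0.16 (R 4.3.3) by its quasi-likelihood test, with TMM normalization, filterByExpr and Benjamini-Hochberg adjustment over all genes tested. The 6 libraries of a model were fitted for the comparison of genotypes, and all 18 together for the comparisons of models and the interactions. All values of CPM are TMM-normalized over the 18 libraries, and SE is the log2 fold change divided by the root of the test's F. Alternatives were DESeq2 1.42.0, RLE normalization, no filter, the replicate number as a block, a covariate of Y-linked RNA, other sets of libraries and leaving out each library; library totals without TMM were added after seeing the data. Tables were made with Python 3.11.15, pandas 2.3.3 and scipy 1.17.1.

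The members and gene lists were chosen with earlier results of these data known. The genes named are drawn from the 8 members, Rnf138, the receptors, up to 3 called genes of each list and comparison with the largest change and at least 5 mean CPM, and the 3 genes most like each member with at least 1 mean CPM. Epcam, Col1a1, Epx, Ccl12, Ccl24, Il6 and Nfkbia fell outside that rule and were named after their values were seen. So were Cd8a, Gzmb, Prf1 and Ncr1 in colitis, and Ly6c2, Cd163, Lep, Prg2, Siglecf, Il5ra, Alox15 and Ear1 in CAC. The same holds for Adgre1, C1qa, C1qc, Ms4a2 and Cpa3 in organoids and Prg2, Siglecf, Cd68 and Itgam in CAC against colitis. Deviations of same-numbered libraries from their group means correlated at 0.321, 0.185 and 0.625 between the genotypes of colitis. The values were 0.0205, 0.266 and 0.101 in CAC and -0.270, -0.110 and 0.122 in organoids. Libraries of different numbers were not compared, so this does not tell whether libraries were paired. On simulated counts with 200 genes changed 4-fold, edgeR called 194 in colitis (of 16718 genes), 180 in CAC (17979) and 200 in organoids (15345), with 14, 8 and 5 false calls. Replicates differed by more than sampling noise in every pair (chi-square per degree of freedom 8.05 to 161), so none was counted as 1 library deposited again; this does not tell separate mice from separate preparations.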

Additional observations from a re-analysis of the deposited data

Results flagged for a closer look

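The genotype difference of Ccl5 differed between CAC and colitis by the test of the interaction (log2 difference -3.28, edgeR, adjusted p = 0.0196). That call was lost without wild-type colitis replicate 1, wild-type CAC replicate 3 or CAC replicate 2 labelled RNF138-/-. In colitis all 3 libraries labelled RNF138-/- lay above every wild-type library, and in CAC the genotypes overlapped. The genotype difference of Ccl4 differed between organoids and CAC tissue (log2 difference 4.80, edgeR, adjusted p = 0.0187), a value fitted against 0 counts in the wild-type organoids and 12 counts over the 3 organoid libraries labelled RNF138-/-. Without organoid replicate 2 labelled RNF138-/- it was 3.67 and was not called (edgeR, adjusted p = 0.1105). With 3 libraries in each group, no library was tested as an outlier within its group.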

How the results depend on the processing

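Of 937 alternative values for single members, 836 kept their direction and their side of the threshold, 28 lost a call, 33 gained one and 40 turned in direction. In colitis the count of members called was 0, and 1 without the filter, by DESeq2 and with the Y-linked covariate. In CAC it was 1, and 0 with library totals, with the replicate block and with the Y-linked covariate, 2 by DESeq2 and in one fit of all 18 libraries, and 0 to 1 when a library was left out. For CAC against colitis in wild type it was 0, and 1 without the filter and by DESeq2, 2 in a fit of those libraries only, and 0 to 1 when a library was left out. For the interaction of CAC and colitis it was 1, and 2 with library totals, without the filter and by DESeq2, and 0 to 2 when a library was left out. For organoids and CAC it was 1, and 2 without the filter, by DESeq2, with the replicate block and in a fit of those libraries only, and 0 to 2 when a library was left out. The other counts stayed within 1.5 times. The labels do not say what the replicate numbers stand for. The block gave Ccl8 in CAC -1.46 (edgeR, adjusted p = 0.0550) and Ccl6 1.88 (0.0319) in the interaction of organoids and CAC, and Ccl5 -1.71 (0.0543) for organoids against CAC labelled RNF138-/-. The Y-linked covariate was not run in organoids, where it separates the genotypes.

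Some directions turned. With library totals the log2 values were 0.0306 (Ccl11) for genotype in CAC, -0.20 (Ccl11) in organoids, 0.0454 (Ccl4) and 0.00940 (Ccl7) for CAC against colitis in wild type, -0.23 (Ccl8) for organoids against CAC labelled RNF138-/-, and -0.00560 (Ccl8) and -0.23 (Ccl11) for the interaction of organoids and CAC. Library totals moved the median of all genes, in CAC from 0.01 to 0.27 and in organoids against CAC labelled RNF138-/- from -0.22 to -0.84; relative to that median Ccl11 in CAC was -0.24 and Ccl8 0.62. The Y-linked covariate gave Ccl4 in CAC -0.22, the block gave Ccl4 0.0247 for CAC against colitis and Ccl8 0.000884 for organoids against CAC in wild type, a fit of those libraries only gave Ccl4 0.00293, and RLE and DESeq2 gave Ccl6 -0.0140 and -0.0142 for the interaction of CAC and colitis. The cause was not tested.

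Leaving out a library gave, for genotype in colitis, -0.41 to 0.00794 (Ccl2), -0.51 to 1.02 (Ccl7) and -0.74 to 0.0610 (Ccl8); in CAC -0.0524 to 0.52 (Ccl4) and -1.07 to 0.18 (Ccl11); and in organoids -0.14 to 0.15 (Ccl11). For CAC against colitis in wild type it gave -0.29 to 0.16 (Ccl4), -0.31 to 0.79 (Ccl5) and -0.55 to 0.0802 (Ccl7), and labelled RNF138-/- -0.44 to 2.25 (Ccl7). For organoids against CAC in wild type Ccl8 ran from -0.75 to 0.25. For the interactions it gave -0.32 to 0.37 (Ccl6) and -0.36 to 2.33 (Ccl7) for CAC and colitis, and -0.95 to 1.07 (Ccl7) and -0.16 to 1.06 (Ccl11) for organoids and CAC.

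The calls over all genes moved more. In colitis they were 15, and 354 without the filter, 343 by DESeq2, 176 with the Y-linked covariate, 89 with the block, 29 with library totals and 0 to 147 without a library; in CAC 954, and 0 with the Y-linked covariate, 2464 by DESeq2, 2834 in one fit, 1641 without the filter and 0 to 1136 without a library. Without a library they were 1726 to 3147 in place of 2636 for CAC against colitis in wild type and 1399 to 3009 in place of 2315 for its interaction, 1515 to 3130 in place of 2292 in organoids, and a fit of those libraries only gave 1689 and 1571. With library totals the split of higher and lower calls was 936 and 1654 in organoids (1215 and 1077 with TMM), 4789 and 2932 for CAC against colitis labelled RNF138-/- (3392 and 3804), 2177 and 8153 for organoids against CAC labelled RNF138-/- (3466 and 5138), and 844 and 1453 (498 and 1817) and 1520 and 3434 (2211 and 1462) for the interactions. Ccl3, Ccl4 and Ccl5 were at low counts in organoids, where single libraries held 0 to 23. Leaving 1 library out leaves a group of 2.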
